A study of Mus musculus with 2 samples.

Results

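The cardiac transcription factors described here are 10 genes, picked by symbol from 40276 features: the zinc-finger factors Gata4 and Gata6, the T-box factors Tbx5 and Tbx20, the basic helix-loop-helix factor Hand2 with its antisense neighbour Hand2os1, the homeobox factor Nkx2-5, and the MADS-box factors Mef2a, Mef2c and Mef2d. Hand2os1 is a long non-coding RNA gene and not itself a factor. All 10 had counts in both sections. The material was a normal mouse heart and a normal mouse brain, each cut once at 5 µm from formalin-fixed, paraffin-embedded tissue. Total RNA was copied in the section with random primers carrying no second cell barcode, by spatial random-primed sequencing, and was counted per spot of an array. No strain, age, sex or allele is given in the labels. Each tissue is 1 library, so no difference between tissues has a replicate check and none was tested. A spot is a small area that can hold several cells of different types.

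Barcodes with at least 500 counts and 200 features were kept as spots over tissue. These were 3726 spots with 44613867 counts in the heart section and 4080 spots with 37143546 counts in the brain section, at a median of 9050 counts per heart spot and 5981 per brain spot. Ribosomal RNA took 48.51% of heart counts and 31.09% of brain counts. Levels are CPM, counts scaled to 1000000 counts, of all counts of a section unless the text says "outside rRNA". That second scale leaves out ribosomal RNA, mitochondrial genes and small structured RNA, and keeps 40.56% of heart counts and 61.88% of brain counts. The median log2 ratio of heart over brain, over 11925 features, was -0.43 on the first scale and 0.18 on the second. The tissue labels held against marker genes: Myh6, the alpha myosin heavy chain of adult mouse heart muscle, stood at 4126 CPM in heart and 2.31 CPM in brain, and Snap25, a synaptic vesicle fusion protein, at 6.23 CPM in heart and 753 CPM in brain. Of the kept barcodes, 3342 occurred in both sections, because both use the same list of 4992 barcodes.

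As background, GATA4, NKX2-5, TBX5, TBX20, HAND2 and the MEF2 proteins bind DNA together at the regulatory regions of heart genes, where they switch on contractile proteins, ion channels and natriuretic peptides during development and keep them on in the adult muscle. MEF2 proteins are not confined to muscle. In neurons they are turned on by calcium entry, through calcineurin and calcium/calmodulin-dependent kinases, and MEF2C is known for its part in cortical development and in pruning of synapses.

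Promoter windows of 300 bases, from 250 before to 50 after the start site, were matched by symbol in a RefSeq table on GRCm38.p6. Windows were found for 7 of the 10 genes, and not for Gata4, Gata6 and Tbx5. They were searched on both strands for the MEF2 consensus (an AT-rich motif of 10 letters with degenerate positions, which can overlap a TATA match), a GATA motif (AGATAA), a T-box motif (AGGTGT), an NKX2-5 motif (CACTTAA) and a TATA motif (TATAAA). The windows printed are those of the heart-enriched Hand2, Tbx20 and Nkx2-5 and of Mef2a, the factor nearest to equal in both tissues by CPM of all counts. Outside rRNA the nearest to equal was Mef2d. Capitals mark a match. They lie at chr8:57320733-57321032 on the plus strand (Hand2), chr9:24774254-24774553 on the minus strand (Tbx20), chr17:26841516-26841815 on the minus strand (Nkx2-5) and chr7:67372809-67373108 on the minus strand (Mef2a).
Hand2: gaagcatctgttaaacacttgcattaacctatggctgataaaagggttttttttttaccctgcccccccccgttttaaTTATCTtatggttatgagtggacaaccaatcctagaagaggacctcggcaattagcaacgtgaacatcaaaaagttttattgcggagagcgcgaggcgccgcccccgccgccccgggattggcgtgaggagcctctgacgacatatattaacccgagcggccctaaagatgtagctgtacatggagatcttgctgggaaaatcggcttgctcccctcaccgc
Tbx20: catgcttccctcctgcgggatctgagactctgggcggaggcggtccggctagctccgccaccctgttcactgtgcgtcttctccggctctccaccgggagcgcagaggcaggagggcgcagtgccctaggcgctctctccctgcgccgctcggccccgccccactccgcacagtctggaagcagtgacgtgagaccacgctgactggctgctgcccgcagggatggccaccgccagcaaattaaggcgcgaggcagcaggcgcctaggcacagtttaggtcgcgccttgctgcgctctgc
Nkx2-5: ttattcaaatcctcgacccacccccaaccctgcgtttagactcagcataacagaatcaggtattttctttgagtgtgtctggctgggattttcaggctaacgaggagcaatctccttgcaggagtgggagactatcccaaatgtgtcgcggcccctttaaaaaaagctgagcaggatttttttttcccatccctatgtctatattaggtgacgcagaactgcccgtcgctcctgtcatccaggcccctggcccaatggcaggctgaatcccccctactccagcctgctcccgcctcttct
Mef2a: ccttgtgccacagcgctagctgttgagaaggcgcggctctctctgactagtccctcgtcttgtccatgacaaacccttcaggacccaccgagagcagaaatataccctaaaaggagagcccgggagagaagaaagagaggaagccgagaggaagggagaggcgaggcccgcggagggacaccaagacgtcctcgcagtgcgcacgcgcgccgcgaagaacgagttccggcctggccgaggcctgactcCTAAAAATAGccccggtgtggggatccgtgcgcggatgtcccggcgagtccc

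The Mef2a window held the MEF2 consensus across its start site, beginning at position -2, a match found in 3.19% of 32851 mouse promoter windows (1047 windows). The Hand2 window held 1 GATA motif at position -172, a match found in 11.2% of windows. By its RefSeq start site, Hand2os1 begins 124 bases before Hand2 on the other strand, so their windows share 223 bases and the same GATA letters. The Tbx20 and Nkx2-5 windows held none of the 5 motifs. Of 3 start-site windows of Mef2c, 1 held a T-box motif, found in 13.7% of windows, and 2 held a TATA motif, found in 13.6%. The NKX2-5 motif occurred in 2.41% of all windows and in none of those matched here. A match describes letters in a window and shows no binding.

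The GATA factors, which bind the core letters GATA and are needed for heart tube formation, were both higher in heart. Gata4 had 2236 counts in heart, or 50.1 CPM, and 219 counts in brain, or 5.90 CPM. The ratio of heart over brain was 8.50 (95% interval 7.40 to 9.81). Gata6 had 1866 counts in heart, or 41.8 CPM, and 118 counts in brain, or 3.18 CPM, a ratio of 13.2 (10.9 to 16.0). All intervals here cover counting error in 1 library per tissue, and the sources do not say whether counts were merged by molecular tag. The other 4 GATA genes stayed under 6 CPM in both sections. Gata2, a factor of blood and endothelium, was at 5.58 CPM in heart and 1.26 CPM in brain, and Gata3, a factor of T cells, at 4.71 CPM in heart and 3.42 CPM in brain. Gata6 overlaps the antisense gene Gata6os over 504 bases, and since strand use is not stated, reads of the pair cannot be told apart there.

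The T-box factors named for the heart were also higher there. Tbx20, needed for chamber growth and adult heart muscle, had 4016 counts in heart (90.0 CPM) and 140 in brain (3.77 CPM), a ratio of 23.9 (20.2 to 28.5). Tbx5, the Holt-Oram syndrome gene in people and a factor of the atria, left ventricle and conduction system, had 1793 counts in heart (40.2 CPM) and 189 in brain (5.09 CPM), a ratio of 7.90 (6.80 to 9.22). Among 17 T-box genes, the only ones past 4-fold and 20 CPM were Tbx5 and Tbx20 in heart and Tbr1, a factor of cortical projection neurons, in brain. Tbr1 stood at 1.098 CPM in heart and 20.5 CPM in brain. Tbx3, a repressor that marks the conduction system, was at 14.97 CPM in heart and 18.7 CPM in brain, a difference that turned to 1.22-fold higher in heart outside rRNA. Mga, a widely expressed T-box gene, was at 52.7 CPM in heart and 81.3 CPM in brain.

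Hand2, which directs growth of the right ventricle in mice, had 750 counts in heart (16.8 CPM) and 9 in brain (0.242 CPM), the highest ratio of the 10 genes at 69.4 (36.3 to 152). Hand2os1 had 2295 counts in heart (51.4 CPM) and 157 in brain (4.23 CPM), a ratio of 12.2 (10.3 to 14.4). By its GENCODE span, Hand2os1 covers 3251 bases of Hand2 on the other strand, so counts of this pair cannot be told apart where they overlap. The RefSeq start site used for the promoter windows lies 124 bases before Hand2 instead. A transcript from that site would not overlap Hand2, so the 2 annotations differ here. Hand1, the left-ventricular partner of Hand2 in the embryo, had 18 counts in heart and 6 in brain. Nkx2-5, an early marker of heart progenitors, was the scarcest factor, with 261 counts in heart (5.85 CPM) and 7 in brain (0.188 CPM). Its ratio was 31.0 (14.8 to 78.0). None of the other 6 NK2 genes passed 4 CPM in either section.

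The MEF2 genes did not follow the other members. Mef2c had 4178 counts in heart (93.7 CPM) and 11978 in brain (322 CPM), and was 3.44-fold higher in brain (3.32 to 3.57), or 2.26-fold outside rRNA. Mef2a had 6056 counts in heart (135.7 CPM) and 5597 in brain (150.7 CPM), a ratio of 0.901 (0.869 to 0.934). Mef2d had 1739 counts in heart (38.98 CPM) and 2092 in brain (56.3 CPM), a ratio of 0.692 (0.649 to 0.738). Mef2a and Mef2d changed side with the scale: outside rRNA Mef2a was 1.37-fold higher in heart and Mef2d 1.06-fold, with an interval from 0.990 to 1.13. Mef2b, the divergent member of the family, had 3.99 CPM in heart and 2.61 CPM in brain. The gene body of Mef2a overlaps Lysmd4 on the other strand over 76168 bases, where reads cannot be assigned by strand; Lysmd4 had 491 counts in heart and 406 in brain.

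**Figure D1:**
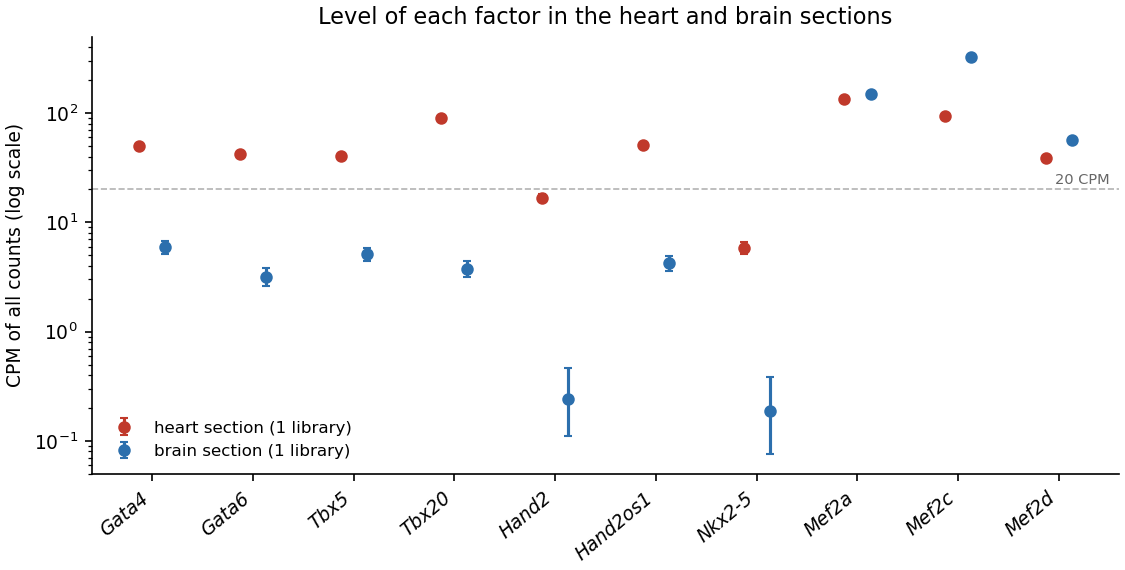
Level of each of the 10 genes in CPM of all counts (log axis) in the heart section (red, left) and the brain section (blue, right); points are 1 library each and bars are 95% exact Poisson intervals, often smaller than the point. The 7 genes from Gata4 to Nkx2-5 lie higher in heart, Hand2 and Nkx2-5 under the dashed line at 20 CPM, and the 3 MEF2 genes lie higher in brain on this scale.

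By a rule of at least 4-fold and 20 CPM, 5 of the 10 genes were called higher in heart (Gata4, Gata6, Tbx5, Tbx20 and Hand2os1), against 5.41% of 6345 features. None of the 10 was called higher in brain, where 17.2% of features were. Hand2 and Nkx2-5 missed only the CPM minimum: with 5 CPM in place of 20 CPM, 7 of the 10 were called in heart, against 4.6% of 13027 features. Outside rRNA, Hand2 reached the minimum and 6 were called in heart, against 877 of 9597 features. None was called in brain, where 808 of those features were. On that scale the ratios of the 7 genes from Gata4 to Nkx2-5 ran from 12.05 (Tbx5) to 105.8 (Hand2). With thinned spots the ratio of Nkx2-5 was 13.5.

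Counts in brain of the heart-enriched genes were set beside a background measured the same way. The background was the summed density over 1490 olfactory and vomeronasal receptor genes, sensory genes of the nose, spread over 12806 kb of gene span. It was 0.0865 CPM per kb in heart and 0.0671 CPM per kb in brain. Receptor genes of at least 5 kb, 1032 in number, ran from 0.428 to 1.56 times this density in heart and from 0.256 to 2.10 times in brain between their 5th and 95th percentiles. In brain, all 7 genes from Gata4 to Nkx2-5 lay inside that range: 1.21 times for Gata4, 1.41 for Gata6, 1.44 for Tbx5, 0.999 for Tbx20, 0.988 for Hand2, 1.46 for Hand2os1 and 0.442 for Nkx2-5. Hand2, at 3.65 kb, is shorter than the genes that set the range. Summed over the section, their brain counts thus lay within the range of receptor genes. In thinned brain spots, the variance over the mean of counts of these 7 genes ran from 0.987 (Tbx5) to 1.08 (Gata6). The median over 5501 features was 1.101, and counting alone gives 1. Unevenness over the spots was thus not shown for the 7 genes, though with so few counts this measure cannot exclude it. Gata4, Tbx5 and Nkx2-5 had intervals above 1 in 1 region. In brain region 8 (264 spots, led by Ptgds and Slc6a20a, with meninges markers 46.9-fold over the rest) Gata4 had 17 counts, 2.18-fold over the rest outside rRNA (1.25 to 3.58), and Tbx5 had 14, 2.08-fold (1.11 to 3.58). Nkx2-5 had 3 of its 7 brain counts there (19.4-fold, 2.85 to 115). The intervals of Gata6, Tbx20, Hand2 and Hand2os1 in region 8 included 1. In the 306 brain spots highest in meninges markers, Gata4 was at 1.86 (1.08 to 3.02), Hand2os1 at 2.07 (1.10 to 3.60) from 14 counts and Tbx5 at 1.80 (0.982 to 3.05). These values rest on few counts, and their source was not tested. In heart the same 7 genes ran from 7.96 times (Gata4) to 53.2 times (Hand2). With the density subtracted from each gene, the ratio of heart over brain was 43.4 for Gata4, 42.2 for Gata6, 22.9 for Tbx5 and 35.8 for Hand2os1. Tbx20, Hand2 and Nkx2-5 then had no brain counts left and gave no ratio. The MEF2 genes stood clear of background in both sections, at 11.1 times in heart and 15.8 times in brain for Mef2a, 6.64 and 29.5 times for Mef2c, and 15.2 and 28.2 times for Mef2d.

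**Figure D2:**
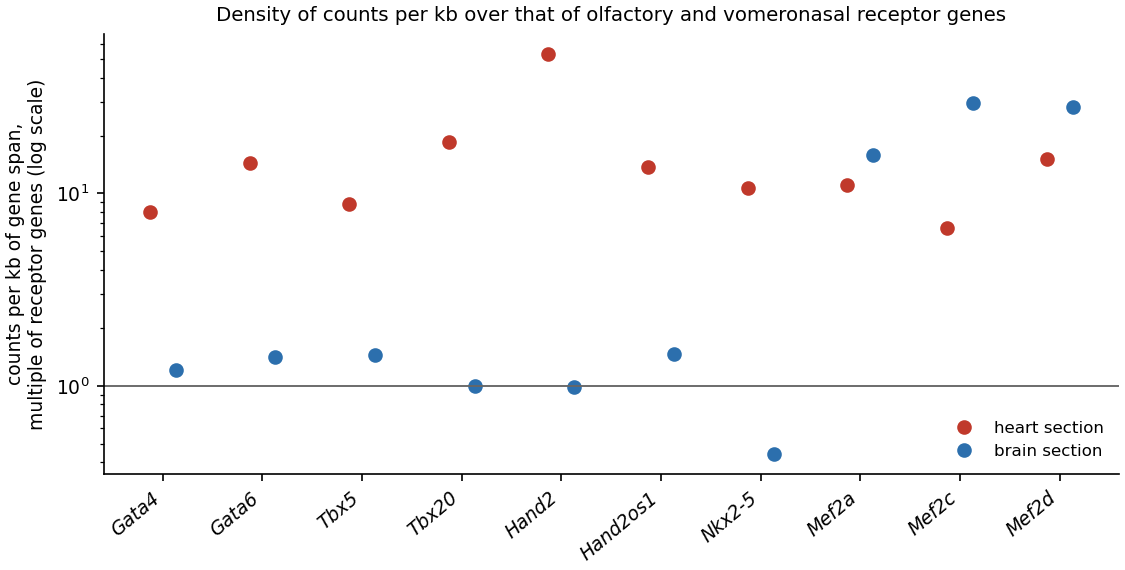
Counts per kb of gene span as a multiple of the density over 1490 olfactory and vomeronasal receptor genes (log axis; the line at 1 is that density), for the heart section (red, left) and the brain section (blue, right). The 7 genes from Gata4 to Nkx2-5 lie between 7.96 and 53.2 in heart and between 0.442 and 1.46 in brain, and the MEF2 genes lie above 6 in both.

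The order of levels among the genes depends on the length they are divided by. Per kb of gene span, Hand2 was the densest in heart at 4.604 CPM per kb, ahead of Tbx20 at 1.603, while Gata4 (0.689) and Mef2c (0.574) were the lowest. Per kb of exon, Gata4 led at 12.8 CPM per kb, ahead of Mef2a at 9.25, and Hand2os1 (4.01) and Nkx2-5 (3.40) were the lowest. Gata4 spans 72.8 kb with 3.90 kb of exon, and Hand2 spans 3.65 kb with 2.35 kb of exon. In brain, Mef2c was first among the 10 on either length, at 1.98 CPM per kb of span and 20.5 CPM per kb of exon. Mef2d at 1.90 and Mef2a at 1.06 followed per kb of span, and Mef2a at 10.3 and Mef2d at 9.41 per kb of exon. Whether reads in introns were counted is not given in the sources used here.

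The share of spots with a count differed widely among the genes. After each spot was thinned to 2800 counts, leaving out 787 shallower heart spots and 1020 brain spots, Tbx20 was seen in 18.8% of heart spots (exact binomial interval 17.4 to 20.2) and 1.08% of brain spots (0.743 to 1.51). Gata4 was seen in 11.8% of heart spots and 1.47% of brain spots, and Tbx5 in 8.68% of heart spots and 1.37% of brain spots. Nkx2-5 was the rarest, in 1.33% of heart spots and 0.0980% of brain spots. Mef2c was seen in 21.2% of heart spots (19.8 to 22.8) and 46.3% of brain spots (44.5 to 48.1), and Mef2a in 28.3% of heart spots and 33.2% of brain spots. Without thinning, Tbx20 was seen in 46.75% of heart spots and 3.19% of brain spots, and Mef2c in 50.1% of heart spots and 57.4% of brain spots. The brain shares of the 7 heart-enriched genes belong to counts whose density over the section lay within the receptor range. Fewer cells of a type in a spot and less RNA per cell cannot be told apart in these data.

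In the heart, spots were ranked by the summed level of a marker list, and the top 10% (294 spots) were compared with the other spots of at least 2800 counts, outside rRNA. Tbx5 and Tbx20 had the highest ratios. In the spots highest in atrial markers (Nppa, Myl7, Myl4, Sln, Bmp10, Dkk3 and Stard10), Tbx5 stood at 358 CPM, against 65.4 CPM in the rest, a ratio of 5.47 (4.97 to 6.03). It was the only member with 20 CPM or more to reach 2-fold there, against 2.04% of features. Tbx20 followed at 385 CPM, against 202 CPM in the rest (1.90, 1.76 to 2.06). Gata4 was at 1.32 (1.17 to 1.49) and Gata6 at 1.31 (1.14 to 1.49). The median ratio of all features there was 1.06. Hand2 was lower in the atrial-marker spots, at 0.697 (0.525 to 0.910), while Hand2os1 was at 0.933 (0.812 to 1.07). The atrial-marker spots had a median of 6130 counts outside rRNA, against 4278 in the rest, and 55.6% against 60.1% of their counts fell on rRNA and the other classes left out.

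Fibroblast and matrix markers (collagens, Dcn, Lum, Pdgfra, Postn, Fn1, Mgp and Vim) picked out Tbx20 as well. In the top spots Tbx20 was at 438 CPM, against 198 CPM in the rest, a ratio of 2.22 (2.05 to 2.39), and was the only member with 20 CPM or more past 2-fold, against 3.05% of features; in the top 20% of spots it was at 1.83. Tbx5 was at 1.85 (1.63 to 2.09), but at 1.16 when spots were thinned to 2800 counts before ranking. Nkx2-5, under 20 CPM in the section, was lower there, with 14 counts in the matrix-marker spots at 7.64 CPM, against 15.3 CPM in the rest (0.499, 0.269 to 0.854). In spots highest in conduction system markers, 1 member passed 2-fold, Tbx5 at 2.43 (2.13 to 2.76), against 0.678% of features; thinned, it was at 1.19. That list holds Gja5, a connexin that atrial muscle also uses. Spots highest in endocardial markers had Tbx20 at 1.59 (1.43 to 1.75) and at 1.12 thinned.

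Spots high in ventricular markers and those high in red blood cell markers differed from each other. In the spots highest in ventricular markers no member reached 2-fold, against 0.0702% of features. Nkx2-5 was at 1.63 (0.975 to 2.57), Hand2 at 1.23 (0.887 to 1.67) and Mef2d at 1.20 (0.970 to 1.47), with intervals that include 1, and Tbx5 was at 0.771 (0.595 to 0.985). In the spots highest in erythrocyte markers all 10 genes were lower, from 0.408 for Nkx2-5 to 0.747 for Gata4, where the median of all features was 0.841 and no member was 2-fold higher, against 10.8% of features. In the top 20% of spots Tbx20 was at 0.853, Hand2 at 0.774, Mef2a at 0.744 and Mef2d at 0.586.

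**Figure D3:**
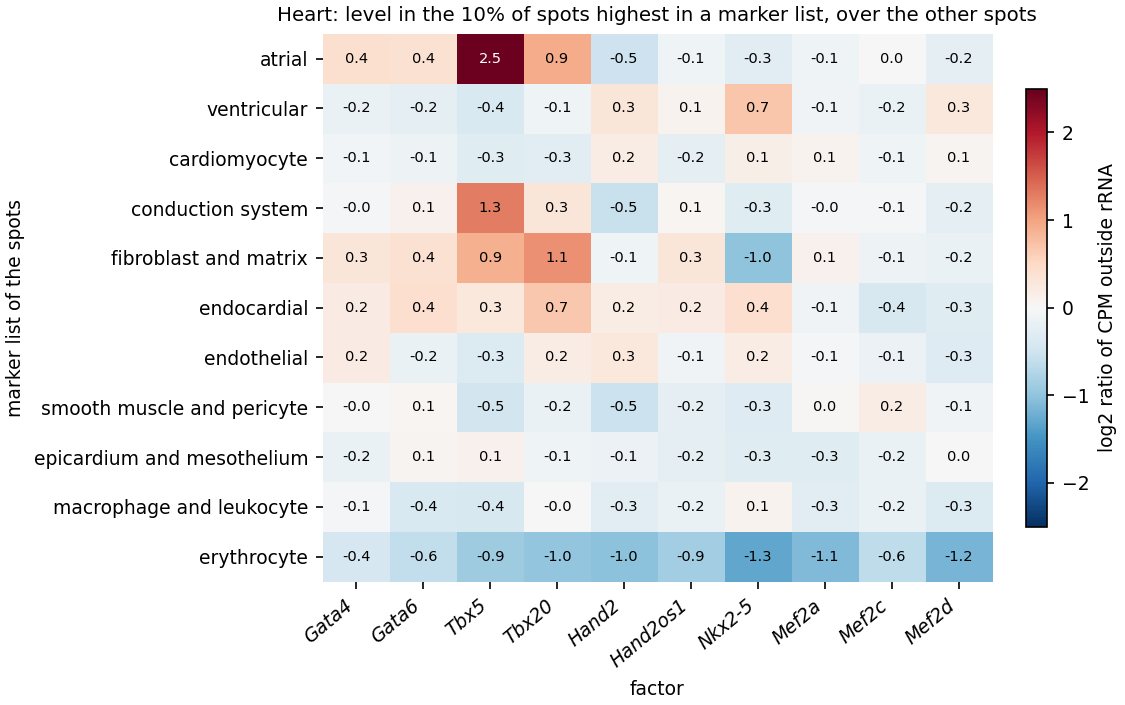
Heart section: log2 ratio of each gene's CPM outside rRNA in the 294 spots highest in a marker list over the other 2645 spots, by list (rows) and gene (columns); red is higher in the marker-high spots. The darkest cell is Tbx5 in the atrial row, Tbx20 is raised in the atrial and the fibroblast and matrix rows, and the erythrocyte row is negative for all 10 genes.

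The atrial and the matrix lists share spots: 110 spots were high in both. Dividing spots by both lists, a step chosen after the values were seen, separated Tbx5 from Tbx20. Tbx5 was at 425 CPM in 184 spots high in atrial markers only, 270 CPM in spots high in both, 78.4 CPM in 184 spots high in matrix markers only and 64.6 CPM in 2461 spots high in neither. Over the last class these are ratios of 6.58 (5.88 to 7.35), 4.17 (3.60 to 4.83) and 1.21 (0.949 to 1.53), and the interval of the matrix-only class includes 1. Tbx20 was at 321 CPM, 470 CPM, 411 CPM and 188 CPM in the same classes, or 1.71 (1.52 to 1.90), 2.49 (2.24 to 2.77) and 2.18 (1.96 to 2.42) over neither. Tbx20 was highest where matrix markers were high, with or without atrial ones. Nkx2-5 had 4 counts in the spots high in both lists, at 0.311 of the level in neither (0.0841 to 0.808). Hand2 was at 0.621 (0.415 to 0.895) in the atrial-only spots and at 0.999 (0.713 to 1.37) in the matrix-only spots. The median depth outside rRNA was 4924 counts in atrial-only spots, 6986 in spots high in both, 3475 in matrix-only spots and 4319 in the rest.

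**Figure D4:**
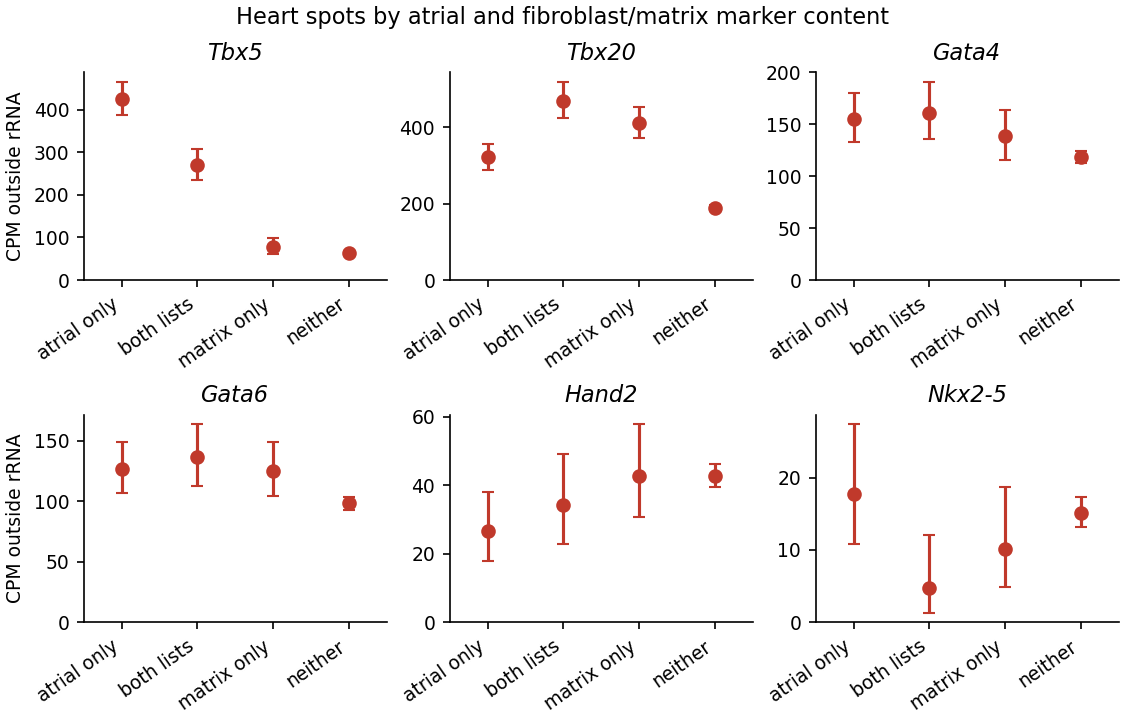
Heart section: CPM outside rRNA (linear axes from 0) of 6 factors in 184 atrial-only spots, 110 spots high in both lists, 184 matrix-only spots and 2461 spots high in neither; bars are 95% exact Poisson intervals. Tbx5 falls off from atrial-only to matrix-only spots, Tbx20 is highest in spots high in both lists, and Gata4 and Gata6 change little.

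Heart spots were also grouped into 5 regions by their variable genes, with all 10 members and every listed gene left out of the grouping. Region 5 had atrial markers at 4.54-fold and fibroblast and matrix markers at 1.69-fold over the rest, so it does not separate the 2 lists. No member reached 2-fold with 30 counts in a region, against 11.2% of features. In region 5 (765 spots, led by Myl7, Sln and Myl4) Tbx5 was at 132.4 CPM outside rRNA, 1.93-fold over the rest (1.75 to 2.13), and Tbx20 at 254 CPM, 1.32-fold (1.24 to 1.41). Tbx5 was at 63.8 to 65.7 CPM in regions 1, 2 and 4, and at 168 CPM from 67 counts in region 3, whose 610 spots had a median of only 940 counts. With a finer grouping into 7 regions, Tbx5 reached 3.21-fold in its highest region and passed the rule, and Tbx20 reached 1.73-fold. In region 2 (357 spots, led by the globin genes Hba-a1 and Hbb-bs) all 10 genes were below the rest, from 0.363-fold for Nkx2-5 to 0.773-fold for Gata4. A median over all features is not given for this region. In the spots highest in erythrocyte markers, another set of spots, the median of all features was 0.841 and their 5th percentile 0.34. All 10 genes lay between these 2 values there. Whether the lower values in region 2 are particular to these genes was not tested. Between regions 1 and 4, led by respiratory chain genes and by Fuca2, Tufm and Myl3, no factor stood apart by much: Gata4 was at 122.9 and 118.5 CPM, and Mef2c at 214 and 239 CPM.

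The unevenness of single genes across spots can be given as the variance over the mean of counts in spots thinned to 2800. In heart, Tbx5 was at 1.21 and Tbx20 at 1.15, with a median of 1.04 over 4277 features. Hand2 was at 1.01, Mef2d at 0.996 and Nkx2-5 at 0.987, close to what counting alone gives at 1. The 61 spots with 5 or more Tbx5 counts held 25.6% of its counts, and the 172 such spots for Tbx20 held 30.1%.

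In the brain, the MEF2 genes were placed differently from each other. Brain spots fell into 10 regions, again grouped without the members. Mef2c was the only member to pass 2-fold with 30 counts in a region, against 16.2% of features. It stood at 1094 CPM outside rRNA in region 2 (969 spots, led by Igfn1, Lamp5 and Tbr1), 4.59-fold over the rest (4.41 to 4.77), from 8307 of its 11978 counts. It was lowest in region 5 (49 spots, led by the choroid plexus gene Ttr) at 70.2 CPM, in region 6 (led by Pmch and Avp) at 105 CPM, and in region 10 (led by Neurod6 and Hpca) at 126.5 CPM. With a finer grouping into 11 regions it was 2.92-fold in its highest region. Mef2a was instead highest in region 7 (657 spots, led by Shox2 and Prkcd), at 389 CPM and 1.76-fold over the rest (1.65 to 1.88), and elsewhere ran from 162 CPM to 277 CPM. Mef2d was flatter, from 61.2 CPM in region 7 to 110.4 CPM in region 2, which was 1.36-fold over the rest (1.24 to 1.48).

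Ranking brain spots by marker lists gave a like placing for Mef2a and Mef2c. Mef2d, highest in region 2, was at 0.893 (0.749 to 1.06) in spots highest in upper cortical layer markers. In the 306 spots highest in upper cortical layer markers, Mef2c was at 1099 CPM, against 478 CPM in the rest (2.30, 2.19 to 2.41), the only member past 2-fold, against 0.182% of features. With thinned spots it was at 1.78, under 2-fold. It was at 0.151 (0.127 to 0.179) in spots highest in hypothalamus markers (0.232 with thinned spots and 0.267 in the top 20%) and at 0.348 (0.323 to 0.375) in those highest in hippocampal pyramidal markers. The hippocampal value moved to 0.851 when spots were thinned before ranking. In spots highest in thalamus markers, where 3.86% of features and none of the 10 genes passed 2-fold, Mef2a was at 1.55 (1.42 to 1.69), Mef2c at 0.534 (0.486 to 0.585) and Mef2d at 0.637 (0.514 to 0.781). With thinned spots Mef2a was at 1.71 and Mef2d at 0.832, both outside these intervals. Mef2a was higher still, at 1.73 (1.59 to 1.88), in spots highest in dentate granule markers. That list was 6.17-fold over the rest in region 7, where thalamus markers were 5.07-fold. In region 9 (60 spots, led by Dsp and Maml2) the dentate granule list was 2.32-fold over the rest. Mef2a was not raised in region 9, at 227 CPM and 0.93-fold over the rest (0.845 to 1.02). Mef2c was the most uneven member in brain, with a variance over mean of 1.87 in thinned spots, against a median of 1.101 over 5501 features. Before thinning, 75.3% of its counts lay in 780 spots with 5 or more, a share that is no measure of unevenness alone.

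**Figure D5:**
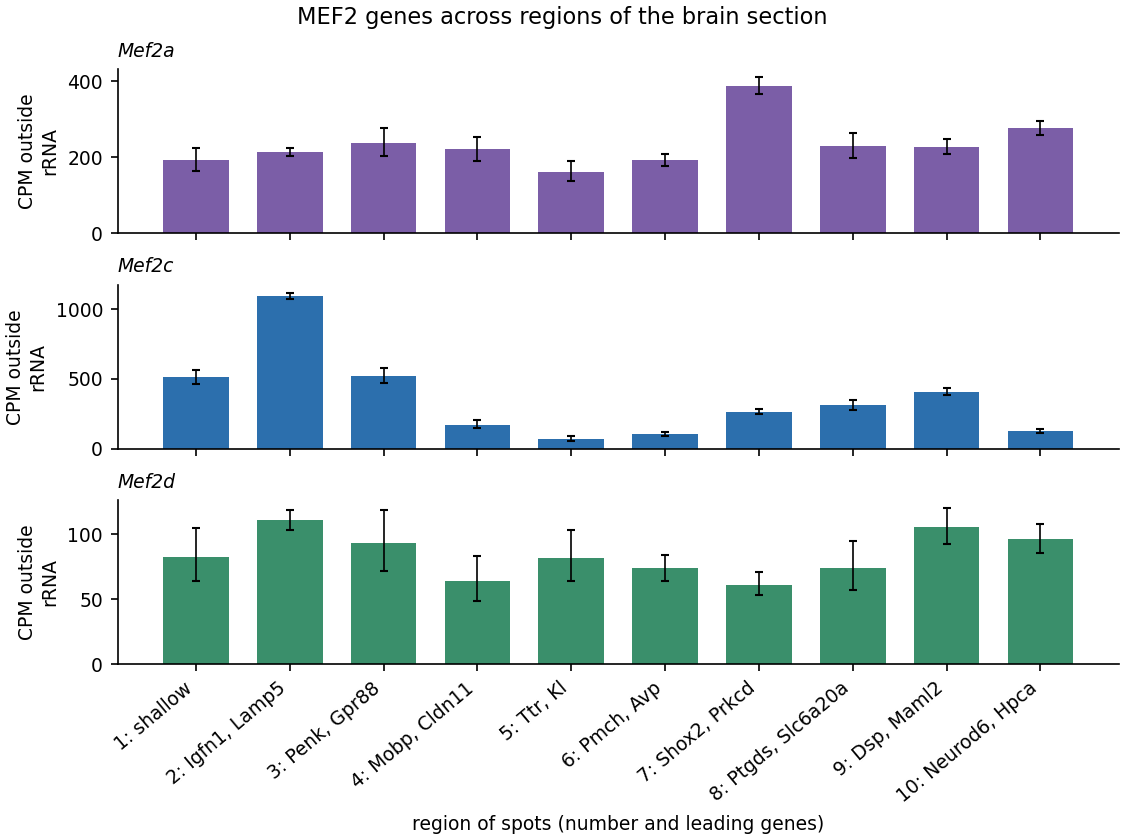
Brain section: CPM outside rRNA (linear axes from 0) of Mef2a, Mef2c and Mef2d in 10 regions of spots, named by number and leading genes; bars are levels and whiskers 95% exact Poisson intervals. Mef2c peaks at 1094 CPM in region 2, Mef2a at 389 CPM in region 7, and Mef2d stays between 61.2 and 110.4 CPM.

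As a share of the counts on Mef2a, Mef2c and Mef2d, Mef2a held 50.6% in heart and 28.5% in brain, Mef2c 34.9% in heart and 60.9% in brain, and Mef2d 14.5% in heart and 10.6% in brain. Per kb of exon, the shares of Mef2c were 27.4% in heart and 51.0% in brain. The ranking depends on length: per kb of gene span, Mef2d held the largest share in heart, 46.1%, ahead of Mef2a at 33.7% and Mef2c at 20.2%. In brain Mef2d then held 38.4%, beside 40.1% for Mef2c and 21.5% for Mef2a. Across the 5 heart regions the Mef2c share of counts ran from 31.7% to 40.9%. Across the 10 brain regions it ran from 22.3% in region 5 to 77.2% in region 2, a wider range than in heart. Shares do not depend on the scale of CPM.

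Genes that act with or under these factors were taken from lists. Of 35 other cardiac transcription factors and cofactors, 33 were found by symbol, and 13 of them reached 20 CPM. Of these, 4 were called higher in heart and none in brain, beside 5.41% and 17.2% of the 6345 features with 20 CPM or more. These were Myocd, the coactivator myocardin (114.5 CPM in heart, 8.83 CPM in brain, 12.97-fold), Hopx, a homeodomain protein without DNA binding (11.3-fold), Smyd1, a muscle methyltransferase (10.95-fold), and Ppara, a nuclear receptor of fatty acid use (5.64-fold). The highest levels were those of Esrrg, an orphan nuclear receptor of mitochondrial genes (261 CPM in heart, 136.0 CPM in brain), Zfpm2, the FOG cofactor that binds GATA4 (239 CPM in heart, 197 CPM in brain), and Tead1, the DNA-binding partner of YAP (190 CPM in heart, 62.97 CPM in brain). The median log2 ratio of the list was 0.94. Of 21 genes that these factors are known to switch on in heart muscle, 16 were called higher in heart and none in brain, beside 5.41% and 17.2% of the 6345 features with 20 CPM or more, with a median log2 ratio of 7.41, on the same scale where all features had -0.43. Leaving out Nppb, which had no brain count, the 10 largest ratios, from 177-fold for Nppa to 1782-fold for Myh6, were those of Myh6, Actc1, Myl2, Tnni3, Pln, Tnnt2, Ttn, Mb, Tnnc1 and Nppa, which encode sarcomere proteins, the calcium pump regulator phospholamban, myoglobin and atrial natriuretic peptide. The calcium pump Atp2a2 (2443 CPM in heart, 337 CPM in brain) and the calcium release channel Ryr2 (2433 CPM in heart, 582 CPM in brain) were high in both tissues. Nppb, which encodes B-type natriuretic peptide, had 251 counts in heart and 0 in brain.

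Of 16 regulators of MEF2 proteins, 14 reached 20 CPM. None was called higher in heart, where 5.41% of those 6345 features were, and 4 were called higher in brain, where 17.2% were. These were Camk2a (28.0-fold higher in brain), Camk2b (19.3-fold) and Camk4 (7.84-fold), calcium/calmodulin-dependent kinases, and Ppp3ca, the catalytic subunit of calcineurin (6.71-fold). Hdac9, a class IIa histone deacetylase that represses MEF2, was at 218 CPM in heart and 371 CPM in brain, and Hdac4, of the same class, at 75.4 CPM in heart and 103 CPM in brain, which turned to 1.11-fold higher in heart outside rRNA. Mapk14 and Carm1 turned likewise, to 1.10-fold and 1.20-fold. Camk2d, the main kinase of that family in heart muscle, was at 159.7 CPM in heart and 123.9 CPM in brain. Of 10 activity-regulated genes of neurons that MEF2 controls, 6 reached 20 CPM, none was called in heart and 3 were called in brain, beside 5.41% and 17.2% of the 6345 features with 20 CPM or more, among them Egr1 (14.6-fold higher in brain) and Pcdh10 (18.8-fold). Homer1, a synaptic scaffold and the most abundant of them, was at 62.8 CPM in heart and 232 CPM in brain. The median log2 ratio was -0.94 for the regulators and -1.997 for the activity-regulated genes, and -0.33 and -1.39 outside rRNA.

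The features most like each factor across regions were found by Pearson correlation of log2(CPM + 1), as a description. Over the 9 brain regions with at least 50 spots, those most like Mef2c included Kcnip3 (0.881) and Rps6ka3 (0.856), Mef2a was most like Tbk1 (0.901) and Mef2d most like Spred2 (0.958). Over the 5 heart regions Tbx5 was most like Timp2 (0.999), Tbx20 like Socs2 (0.996), Gata4 like Axl (0.997), Gata6 like Zfpm2 (0.999) and Mef2d like Mlip (0.9999). With 5 points such values are common: 44 features passed 0.95 for Tbx5 and 788 for Mef2d. Regions share a library and differ in depth.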

How the data were processed

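Counts per feature and spot were deposited by the authors for 1 heart and 1 brain section, as whole numbers that had not been normalized. The submitters' processing notes name STARsolo and the build mm39; the STARsolo version is not given in the sources used here, nor whether molecular tags were merged, introns counted or strand used. GENCODE mouse release 21 (GRCm38) gave gene spans and overlaps by gene ID for 35551 of 40253 IDs, and no coordinates of it are printed.

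Barcodes with at least 500 counts and 200 features were kept, leaving out 1266 heart and 912 brain barcodes with 154831 and 156957 counts. Library totals were 44768698 counts in heart and 37300503 in brain. Levels have exact Poisson, shares exact binomial and ratios exact conditional binomial intervals at 95%, which cover counting error only. The size rule was 4-fold and 20 CPM. Spots were thinned to 2800 counts (seed 1) where stated. Regions came from Leiden grouping in scanpy 1.11.5 (2000 variable genes without the members and listed genes, 20 components, 15 neighbours, resolution 0.6, with 0.3 and 1.0 as alternatives). Python 3.11.15, numpy 2.4.6, scipy 1.17.1 and pandas 2.3.3 were used. The size rule, intervals and marker ranking were tested on simulated data. Named genes were all members, family genes past the rule, and from each list the 4 with the highest CPM and those past the rule; others named in the text were chosen after their values were seen, and 2 genes that the rule picks are not reported here. The members and the gene lists were chosen with earlier results of these data known. Marker lists of cell types and brain parts were used to rank spots. Alternatives were another scale, other spot minimums, equal weight of spots, background subtraction, thinning, another CPM minimum and fold, the top 20% of spots and other resolutions.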

Additional observations from a re-analysis of the deposited data

Results flagged for a closer look

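Barcodes under the spot minimum, which no main comparison used, still held more than 3 counts, the limit set for this list, of several members. In the heart library they held 11 counts of Gata6, 9 of Tbx5, 13 of Tbx20, 10 of Hand2os1, 32 of Mef2a, 17 of Mef2c and 11 of Mef2d. In the brain library they held 4 counts of Gata4, 5 of Hand2os1, 26 of Mef2a, 60 of Mef2c and 10 of Mef2d. Relative to the counts of those barcodes, Mef2c stood at 109.8 CPM in heart and 382 CPM in brain, against 93.7 CPM and 322 CPM in the kept spots of the same sections. With all barcodes included, the same 5 genes passed the size rule in heart.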

How the results depend on the processing

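The count of members called higher in heart was 5. It was 6 outside rRNA, 7 with a minimum of 5 CPM, and 5 under each of the other alternatives (all barcodes, stricter spots, equal weight of spots, background subtracted, thinned spots, 2-fold). Of all features, 877 of 9597 were called in heart outside rRNA, 599 of 13027 at 5 CPM and 762 of 6345 at 2-fold. Under the remaining alternatives they ran from 307 of 6395 (equal weight of spots) to 422 of 5581 (background subtracted). The count called higher in brain was 0, and 1 (Mef2c) at 2-fold, where 2507 of 6345 features were called in brain. Of 57 alternative values of the members' ratios, 37 stayed inside the first interval and 20 moved out of it; 2 of these turned, Mef2a to 1.37 and Mef2d to 1.06 outside rRNA. The lowest ratio of Nkx2-5 was 13.5, with thinned spots. Of 78 alternative ratios in marker-high spots, 39 moved out of their interval and none turned: Tbx5 in atrial-marker spots ran from 4.01 (top 20%) to 6.32 (all counts), and Tbx20 in matrix-marker spots from 1.83 to 2.60. Of 24 alternative values by region, 3 moved, those of Tbx5, Tbx20 and Mef2c at the finest grouping. The cause of these shifts was not tested. No paired analysis was possible because each tissue has 1 library. At these depths Hand2 and Nkx2-5, with 9 and 7 brain counts, have the widest intervals, and with 1 section per tissue, animal, section and tissue cannot be told apart.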

Other observations

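Gata6os, the antisense neighbour of Gata6, had 977 counts in heart and 179 in brain. Irx3, a homeobox factor of the conduction system, had 289 counts in heart (6.48 CPM) and 17 in brain (0.458 CPM), 14.1-fold higher in heart (8.69 to 24.6), and missed the size rule by its CPM. Irx4, a ventricular factor, had 181 counts in heart (4.06 CPM) and 20 in brain (0.538 CPM), 7.54-fold higher in heart (4.74 to 12.6), and likewise missed it. Isl1, a factor of heart progenitors and of motor and forebrain neurons, was 3.13-fold higher in brain (2.34 to 4.25), at 1.43 CPM in heart and 4.50 CPM in brain. Hey1, a Notch target, was 2.96-fold higher in brain (2.32 to 3.81). These genes were chosen after their values were seen.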
